A study of Mus musculus with 6 samples.

Results

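The AP-1 subunits are the FOS and JUN proteins and their closest partners, and 10 of their genes were measured in differentiated mouse osteoblasts stimulated with the complement fragment C5a or left unstimulated. The genes were Fos, Fosb, Fosl1, Fosl2, Jun, Junb, Jund, Atf3, Jdp2 and Maff. They were chosen by gene symbol, as the probesets of the array that name 1 of these genes and no other, and each gene had exactly 1 such probeset. The family thus holds 10 of the 19938 genes, and 10 of the 35556 probesets, on the array.

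AP-1 is a dimer of basic leucine zipper (bZIP) proteins that binds short palindromic DNA elements. FOS proteins cannot pair with themselves and need a JUN partner, whereas JUN proteins can also pair with each other, and ATF3, JDP2 and MAFF join or compete with these dimers. Fos, Fosb, Jun, Junb and Atf3 are immediate early genes, which cells transcribe within minutes of a stimulus without new protein synthesis, and their mRNAs are short-lived. In bone, FOS is required in osteoclast precursors, and FOSL1, FOSL2 and the splice form of FOSB known as ΔFosB are known regulators of matrix formation by osteoblasts.

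The cells were primary osteoblasts of male wild-type C57BL6/J mice aged 8 to 12 weeks, grown out of collagenase-treated chips of the long bones, used at passage 2 to 3 by the labels or at passage 2 by the study's methods, and differentiated for 14 days in osteogenic medium. C5a-stimulated cultures then received 100 ng/ml recombinant murine C5a for 4 h in proliferation medium, and unstimulated cultures spent 4 h in the same medium without it. Both groups had 3 arrays, 1 from each of the mice numbered 2, 4 and 5, and all 6 arrays belong to wild-type cells. Both groups had therefore also left the osteogenic medium at the start of the 4 h, and the values describe 1 time after that change.

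Values are log2 intensities after the robust multiarray average (RMA), so a difference of 1 is a doubling of signal. The array medians lay between 5.90 and 5.92 with C5a and between 5.89 and 5.93 without it. Of the osteoblast markers, the matrix genes were high in all cultures, with Col1a1 at 13.32 to 13.76 with C5a and 13.41 to 13.79 without, and Sparc at 14.02 to 14.20 with C5a and 14.04 to 14.14 without. Later markers varied between mice: Ibsp, which encodes bone sialoprotein and was picked after its values were seen, read 11.26, 12.62 and 7.02 with C5a in mice 2, 4 and 5, against 11.75, 12.88 and 7.56 without. The mean of the 8 measured osteoblast markers was 10.59, 11.18 and 9.39 with C5a, against 10.67, 11.32 and 9.50 without, so it was lowest in mouse 5. The cultures were not pure: the mean of 15 macrophage and osteoclast markers was 9.19, 9.43 and 6.63 in C5a-stimulated cultures of mice 2, 4 and 5, against 9.48, 9.83 and 6.48 in the unstimulated ones. Both cultures of mouse 5 thus had far lower macrophage transcripts than those of mice 2 and 4. In RNA from whole cultures, fewer cells of a type and less RNA per cell cannot be told apart.

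After 4 h with C5a, 5 of the 10 subunits were lower with limma, namely Fos, Fosb, Jun, Junb and Atf3, while Fosl1 was higher. These calls used an unadjusted p below 0.05 with a change of 1.5-fold or more, called the thresholds of the methods in what follows. With the methods' t-test at these thresholds, the same 5 were lower and 0 were higher, beside 0.818% and 1.05% of all probesets. Over the whole array, 1.12% of probesets were lower and 1.47% were higher at these thresholds with limma. After Benjamini-Hochberg adjustment over all probesets, 1 subunit passed an adjusted p of 0.05, Fos, which fell, and 0 passed in the other direction, against 0.0112% of all probesets that passed as lower and 0.00281% that passed as higher. At an unadjusted p under 0.05, limma gave 6 lower subunits and 1 higher one, beside 1973 and 1925 of all probesets. The methods' t-test gave 6 and 0, beside 1586 and 1528. With the mouse as a block in limma the counts were 7 and 1, beside 3051 and 2706, the added subunit being Jdp2. The 3 values with C5a lay wholly below the 3 unstimulated ones for 6 subunits, those 5 and Jund, and wholly above for Fosl1, where 7.29% and 7.89% of all probesets separated in these ways. The remaining 3, Fosl2, Jdp2 and Maff, overlapped between the groups. Within mice, 7 subunits were lower with C5a in 3 of 3, and Fosl1 was higher in 3 of 3, beside 17.7% and 18.3% of all probesets. The median log2 fold change was -0.98 over the 10 subunits and 0.0070 over all probesets. The median difference of the subunits was -0.91, -1.19 and -0.79 in mice 2, 4 and 5.

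**Figure D1:**
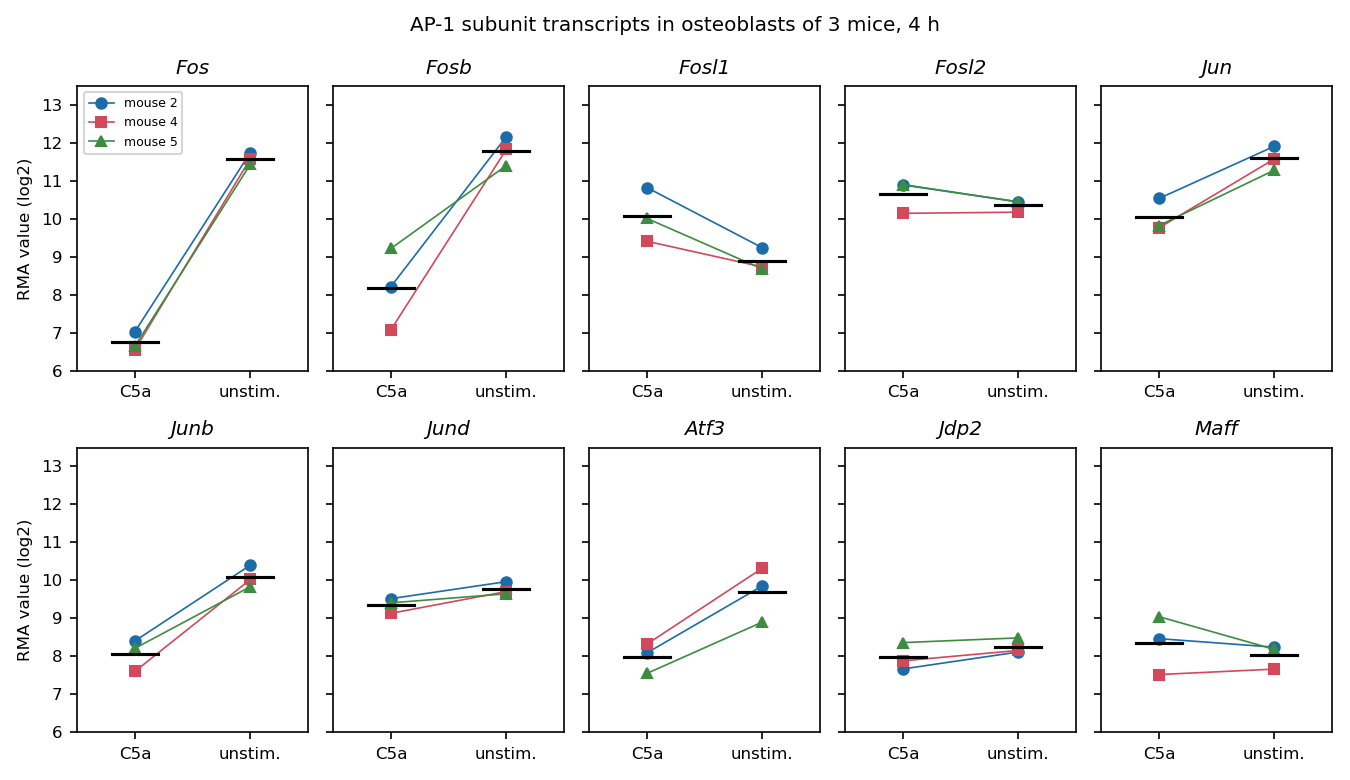
RMA values (log2, vertical axis, from 6) of the 10 AP-1 subunits in C5a-stimulated and unstimulated cultures, with 1 line per mouse and a black bar for each group mean (n = 3). Fos lay between 6.56 and 7.04 with C5a and between 11.44 and 11.75 without, whereas Fosl1 was higher with C5a in all 3 mice.

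The promoters of the 5 lower subunits are given here because these genes were low on the same arrays. The sequences are the RefSeq windows of GRCm38.p6 that run from 250 bases before to 50 after an annotated start, and they are written 5′ to 3′ on the strand of the gene. Capitals mark matches, on either strand, to the 5-letter core TGACG of the cAMP response element or, in Jun, to the 8-letter element TGACNTCA, a variant of which many AP-1 and ATF dimers bind.
Fos, chr12:85473640-85473939, plus strand: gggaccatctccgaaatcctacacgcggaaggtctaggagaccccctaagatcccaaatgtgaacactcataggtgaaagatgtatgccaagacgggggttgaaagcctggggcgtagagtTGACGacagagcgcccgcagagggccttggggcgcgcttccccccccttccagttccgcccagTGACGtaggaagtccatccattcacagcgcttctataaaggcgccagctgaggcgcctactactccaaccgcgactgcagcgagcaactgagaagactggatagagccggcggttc
Fosb, chr7:19309996-19310295, minus strand: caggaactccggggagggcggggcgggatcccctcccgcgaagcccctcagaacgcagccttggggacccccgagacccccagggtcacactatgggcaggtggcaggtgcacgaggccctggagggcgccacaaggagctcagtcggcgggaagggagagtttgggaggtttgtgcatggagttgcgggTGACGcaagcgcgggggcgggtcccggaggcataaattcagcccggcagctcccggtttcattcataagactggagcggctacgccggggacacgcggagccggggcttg
Jun, chr4:95052173-95052472, minus strand: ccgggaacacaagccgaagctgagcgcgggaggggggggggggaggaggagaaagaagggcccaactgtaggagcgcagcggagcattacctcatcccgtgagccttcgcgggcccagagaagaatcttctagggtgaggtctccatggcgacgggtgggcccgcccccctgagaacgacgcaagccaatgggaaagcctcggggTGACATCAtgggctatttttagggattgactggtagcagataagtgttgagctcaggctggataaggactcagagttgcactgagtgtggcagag
Junb, chr8:84978699-84978998, minus strand: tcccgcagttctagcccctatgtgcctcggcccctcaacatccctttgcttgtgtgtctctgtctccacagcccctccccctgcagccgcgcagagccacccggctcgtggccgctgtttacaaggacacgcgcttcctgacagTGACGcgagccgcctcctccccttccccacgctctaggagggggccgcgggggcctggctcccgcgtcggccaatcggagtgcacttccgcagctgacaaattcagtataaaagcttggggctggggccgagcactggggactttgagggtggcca
Atf3, chr1:191183284-191183583, minus strand: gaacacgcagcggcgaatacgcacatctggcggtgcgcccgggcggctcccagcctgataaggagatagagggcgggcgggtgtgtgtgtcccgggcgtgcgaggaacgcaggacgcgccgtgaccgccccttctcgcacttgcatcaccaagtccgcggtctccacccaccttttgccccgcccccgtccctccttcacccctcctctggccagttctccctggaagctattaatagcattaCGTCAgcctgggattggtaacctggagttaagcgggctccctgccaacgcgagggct

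The core TGACG occurred in the windows of Fos, at -129 and -66 from the start, of Fosb at -60, of Junb at -106 and of Atf3 at -7, counted to the first base of the match. The Jun window held TGACNTCA at -45 and no TGACG. Among the subunits not called lower at the thresholds of the methods, Jdp2 and Maff also had windows with TGACG, and Maff had windows with TGACNTCA. In total 9 of the 10 subunits had a window, with 13 windows in all, and 6 of these 9 genes matched TGACG, which was found in 20.8% of 32851 windows of the same length. TGACNTCA matched 2 genes and 8.83% of all windows, and it contains TGACG when its N is G, as in 1 Maff window. Neither the AP-1 element TGANTCA (7.81% of all windows) nor the CArG box of serum response factor (1.63%) matched any of the 13. The CArG box was searched only in its strict form. Bases further than 250 before a start were not searched, so these genes may have such elements outside the windows. Genes with several windows have more chances of a match, and a match to letters is not a binding site.

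Fos, whose protein binds DNA only with a partner such as JUN, had the smallest p and the largest absolute change of all 35556 probesets. Its probeset (10397346, chromosome 12) read 7.04, 6.56 and 6.65 with C5a in mice 2, 4 and 5, against 11.75, 11.58 and 11.44 in the unstimulated cultures. All C5a-stimulated cultures were low and all unstimulated ones high, and the groups lay far apart compared with their spread. Fos fell by 4.84 log2 units (standard error, SE, 0.15, 95% confidence interval -5.20 to -4.47, adjusted p = 0.00197), and was 28.6-fold lower with C5a. Within mice the difference was -4.71, -5.02 and -4.78, so the size hardly varied between animals. With C5a Fos stood above 59.0% to 64.9% of all probesets on its array, and without C5a it stood above 97.8% to 98.2%. The adjusted p was 0.0587 without the unstimulated array of mouse 4, and 0.0538, 0.204 and 0.307 without both arrays of mouse 2, 4 or 5, while the change stayed between -4.98 and -4.74. With the methods' t-test the adjusted p was 0.185.

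Fosb, the closest relative of Fos, varied more. Fosb (10560481, chromosome 7) read 8.22, 7.09 and 9.22 with C5a, against 12.17, 11.83 and 11.41 without. The groups did not overlap, and mouse 5 had both the highest value with C5a and the lowest without it. Fosb had a log2 fold change of -3.62 (SE 0.54, 95% confidence interval -4.94 to -2.31, adjusted p = 0.146), a 12.3-fold lower signal that ranked 4th of all probesets by absolute change. The standard deviation was 1.07 with C5a and 0.38 without (n = 3 each). Within mice 2, 4 and 5 the difference was -3.94, -4.74 and -2.18, and without mouse 5 the log2 fold change was -4.34 (adjusted p = 0.410).

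Fosl1, which encodes FRA1, was the subunit with the largest difference in the other direction. Fosl1 (10460585, chromosome 19) read 10.83, 9.41 and 10.01 with C5a, against 9.24, 8.74 and 8.68 without. Each C5a-stimulated culture lay above each unstimulated one, and the nearest values were 9.41 with C5a in mouse 4 and 9.24 without in mouse 2. This was a log2 fold change of 1.20 (SE 0.37, 95% confidence interval 0.30 to 2.10, adjusted p = 0.304), or 2.29-fold. Within mice it was 1.58, 0.68 and 1.33. The unadjusted p was 0.0174, and it was 0.0547 without the unstimulated array of mouse 4, 0.0552 without that of mouse 5, 0.106 without both arrays of mouse 5 and 0.0552 with the methods' t-test.

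Fosl2, which encodes FRA2, overlapped between the groups. Fosl2 (10520862, chromosome 5) read 10.89, 10.15 and 10.91 with C5a, against 10.45, 10.18 and 10.44 without. It was higher in mice 2 and 5 and level in mouse 4, where the difference was -0.031. Its log2 fold change was 0.29 (SE 0.22, adjusted p = 0.775), and its 95% confidence interval of -0.26 to 0.84 leaves room for a change in either direction. It was 0.54 (unadjusted p = 0.00448, adjusted p = 0.160) without the C5a array of mouse 4 and 0.45 without both arrays of that mouse, while leaving out the C5a array of mouse 2 gave 0.17 and leaving out that of mouse 5 gave 0.16.

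The 3 JUN genes were all lower with C5a in each of 3 mice, as were 17.7% of all probesets, by unequal amounts. Jun (10514466, chromosome 4), the strongest transcriptional activator of the JUN proteins, read 10.54, 9.77 and 9.83 with C5a, against 11.91, 11.58 and 11.29 without. The groups were separate, and mouse 2 was the highest in both. The log2 fold change of Jun was -1.55 (SE 0.26, 95% confidence interval -2.18 to -0.92, adjusted p = 0.151), with differences of -1.37, -1.81 and -1.46 within mice. Junb (10580282, chromosome 8), which often opposes JUN and takes part in osteoblast proliferation, read 8.41, 7.61 and 8.21 with C5a, against 10.40, 10.03 and 9.84 without. Its groups were more than 1 log2 unit apart at their nearest points. The log2 fold change of Junb was -2.01 (SE 0.25, 95% confidence interval -2.61 to -1.41, adjusted p = 0.141), a 4.03-fold lower signal.

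Jund (10572456, chromosome 8) is the JUN gene that most cells transcribe steadily. It read 9.52, 9.14 and 9.41 with C5a, against 9.97, 9.71 and 9.65 without, so its groups were separate but close. Jund had a log2 fold change of -0.42 (SE 0.13, 95% confidence interval -0.75 to -0.09, adjusted p = 0.325), a 1.34-fold lower signal that is under the fold threshold of the methods. The value of Jund minus that of Junb moved by 1.59 ± 0.23 (SD over 3 mice), as it was 1.11 to 1.53 with C5a and -0.43 to -0.19 without.

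Atf3, a stress-induced repressor that pairs with JUN proteins, was lower with C5a in each mouse. Atf3 (10361091, chromosome 1) read 8.09, 8.32 and 7.55 with C5a, against 9.86, 10.32 and 8.91 without. The groups did not overlap, and in both of them mouse 4 was the highest and mouse 5 the lowest, an order that no other of the 5 lower subunits had. Atf3 had a log2 fold change of -1.70 (SE 0.39, 95% confidence interval -2.66 to -0.75, adjusted p = 0.206), or 3.26-fold lower, with differences of -1.76, -1.998 and -1.35 within mice. With the mouse as a block the adjusted p of Atf3, Jun and Junb was 0.0704 each, that of Fosb was 0.0984 and that of Fos was 0.00274, so the block changed no call of a subunit at the adjusted threshold, and none at the thresholds of the methods.

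Jdp2, a repressor of AP-1 that recruits histone deacetylase, is the chromosome 12 neighbour of Fos, with 0 protein-coding genes and 121 kb between them in GRCm38.p6. Jdp2 (10397351) read 7.67, 7.88 and 8.36 with C5a, against 8.12, 8.16 and 8.49 without. The groups overlapped because mouse 5 was high in both, although Jdp2, like 17.7% of all probesets, was lower in 3 of 3 mice. The log2 fold change of Jdp2 was -0.28 (SE 0.20, 95% confidence interval -0.77 to 0.21, adjusted p = 0.748), against -4.84 for Fos. It was -0.48 (unadjusted p = 0.0238) without the C5a array of mouse 5, -0.13 without that of mouse 2 and -0.16 without the unstimulated array of mouse 5. With the mouse as a block its unadjusted p was 0.0270 and its adjusted p 0.233.

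Maff, a small MAF protein without an activation domain, read 8.47, 7.52 and 9.05 with C5a (10425283, chromosome 15), against 8.24, 7.67 and 8.19 without. The groups overlapped, with mouse 4 the lowest in both. The log2 fold change of Maff was 0.31 (SE 0.40, 95% confidence interval -0.65 to 1.28, adjusted p = 0.900). Its direction rested on single arrays: it was 0.73 (unadjusted p = 0.0378) without the C5a array of mouse 4, and -0.037 without that of mouse 5.

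**Figure D2:**
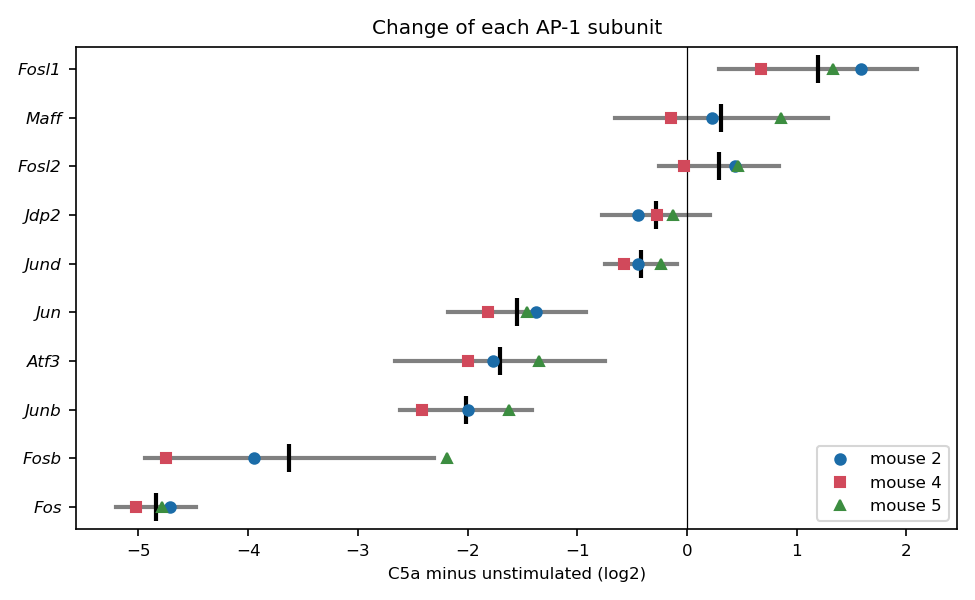
Log2 fold change of each subunit, C5a minus unstimulated (horizontal axis), with the limma estimate as a black tick, its 95% confidence interval as a grey bar and the difference within each mouse as a symbol. The intervals of Fos, Fosb, Junb, Jun, Atf3 and Jund lie below 0, that of Fosl1 lies above 0, and those of Jdp2, Fosl2 and Maff span it.

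The order of the values within the family was reshuffled. Probesets differ in affinity, so a rank says little of the amount of 1 mRNA against another, and ranks are compared only for the same gene between arrays. Fos ranked 10th of 10 on each C5a array, against 3rd, 2nd and 1st on the unstimulated arrays of mice 2, 4 and 5. Fosb ranked 7th, 9th and 5th with C5a, against 1st, 1st and 2nd without. In their place Fosl2 ranked 1st on each C5a array, against 4th, 5th and 4th without, and Fosl1 ranked 2nd, 3rd and 2nd, against 8th on each unstimulated array. Fosl2 thus moved up in rank with C5a while its own values overlapped between the groups.

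Jun kept ranks of 2 or 3 on all 6 arrays. Jund ranked 4th on each C5a array, against 6th, 7th and 6th without, although its own value was lower. Junb ranked 6th, 7th and 8th with C5a, against 5th, 6th and 5th without. Atf3, Jdp2 and Maff remained between 4th and 10th place on all arrays, and Maff ranked 5th, 8th and 6th with C5a, against 9th, 10th and 10th without.

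**Figure D3:**
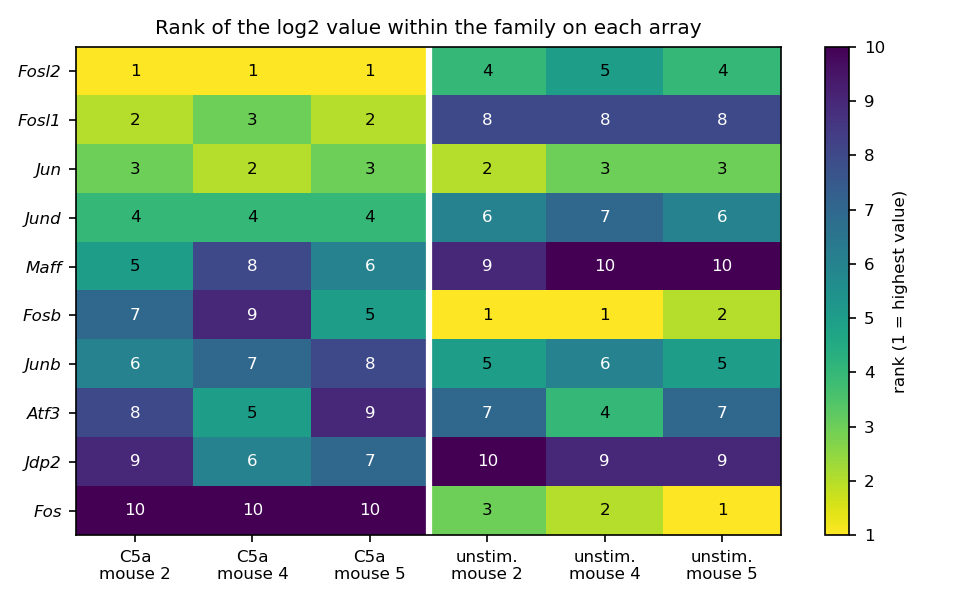
Rank of each subunit within the family on each array (1 = highest log2 value, yellow; 10 = lowest, dark), with the 3 C5a arrays left of the 3 unstimulated ones. Fos is 10th on all C5a arrays and 1st to 3rd on the unstimulated ones, while Fosl1 and Fosl2 take places 1 to 3 with C5a.

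Differences between pairs of subunits on the same array show how far they parted. Fosl1 minus Fos was 3.79, 2.85 and 3.36 with C5a, against -2.50, -2.85 and -2.75 without, a shift of 6.03 ± 0.31 (SD over 3 mice). Fosl2 minus Fos shifted by 5.13 ± 0.13, and Fosl1 minus Fosb by 4.82 ± 1.13. Jun minus Junb shifted by 0.46 ± 0.26, the least of the pairs computed. The 7 pairs were picked with earlier results of these data known, and the shifts are given without a test.

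The cultures of single mice also differed. With C5a, 9 of the 10 were above their group mean in mouse 2, 1 of 10 in mouse 4 and 6 of 10 in mouse 5, beside 53.05%, 42.47% and 52.48% of all probesets on these arrays. Without C5a the counts were 9, 2 and 3, beside 46.82%, 44.59% and 56.99%. The median deviation from the group mean in the C5a array of mouse 4 was -0.37 over the subunits and -0.0195 over all probesets.

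Over the 6 arrays, Pearson's r between Jun and Junb was 0.977, between Fosb and Junb 0.976 and between Fos and Junb 0.975, and it was -0.76 between Fos and Fosl1. The 6 points share the split into 2 groups. Among 19928 genes outside the family, those most like Fos over the arrays were Fam172a (r = 0.997), Zfp36 (0.996), Btg2 (0.995), Ier2 (0.994) and 6430550D23Rik (0.991). Zfp36, Btg2 and Ier2 are immediate early genes, with log2 fold changes of -3.19, -3.22 and -3.80. Fam172a followed the pattern at a far smaller scale, with a log2 fold change of -0.30 (SE 0.05, adjusted p = 0.164). Those most like Fosl1 were Rps6kc1 (0.996), St3gal2 (0.995), Prickle3 (0.995), Prr14l (0.993) and Lin7c (0.993), each with a log2 fold change between 0.10 and 0.36.

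Other immediate early genes, listed beside the family, were lower as well. Of 24 measured genes of 26 listed, 15 were lower and 0 higher at the thresholds of the methods, beside 1.12% and 1.47% of all probesets. Without mouse 5, 15 were lower and 0 higher. In that fit 1043 of all 35556 probesets passed in either direction, against 923 with all arrays. The median change of the 24 genes was -0.83. Zfp36, whose product speeds the decay of mRNAs with AU-rich elements, read 8.93, 8.60 and 8.48 with C5a, against 12.16, 11.64 and 11.77 without, and fell by 3.19 (SE 0.18, adjusted p = 0.0333). Btg2, which restrains proliferation, fell by 3.22 (SE 0.20, adjusted p = 0.0354). Egr2, a zinc finger transcription factor, fell by 3.41 (SE 0.22, adjusted p = 0.0354, or 0.0704 with the mouse as a block). Ier2 had -3.80 (SE 0.28, adjusted p = 0.0559, or 0.0195 with the block). Without both arrays of any 1 mouse, 0 of all probesets passed the adjusted threshold.

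The bZIP genes outside the family, which include CREB, ATF, C/EBP and MAF proteins that share dimers or sites with AP-1, had a median log2 fold change of -0.0011 over 23 measured genes of 24. Of these, 2 were lower and 0 higher at the thresholds of the methods, beside 1.12% and 1.47% of all probesets. Ddit3, a stress-induced partner that cannot bind the usual C/EBP sites, read 7.90, 8.01 and 8.24 with C5a, against 8.93, 8.87 and 8.64 without, a log2 fold change of -0.76 (SE 0.12, adjusted p = 0.150). Cebpd, an early C/EBP gene, had -1.11 (SE 0.38, adjusted p = 0.361). Maf, a large MAF protein, had -0.57 (adjusted p = 0.151) and Atf4, an osteoblast regulator of amino acid supply, -0.41 (adjusted p = 0.234), both with separate groups but under 1.5-fold.

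Kinases and transcription factors known to act on AP-1 genes moved less. Over 18 measured genes of 24 listed the median log2 fold change was 0.035, with 2 lower and 2 higher at the thresholds of the methods, beside 1.12% and 1.47% of all probesets, and 1 lower and 0 higher without mouse 5. Map2k6, a kinase of p38, read 5.70, 5.68 and 5.92 with C5a, against 7.30, 6.72 and 6.47 without, a log2 fold change of -1.07 (SE 0.22, adjusted p = 0.178). Map2k3, the other main kinase of p38, had 0.75 (SE 0.19, adjusted p = 0.228) and was the opposite case, with 9.91, 9.60 and 10.30 with C5a against 9.31, 9.23 and 9.04 without. Rps6ka5, a kinase downstream of ERK and p38, had -0.48 (adjusted p = 0.194), and Elk4, a ternary complex factor that acts with serum response factor, had 0.34 (adjusted p = 0.220). These are transcript levels and carry no measure of kinase activity.

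Genes known as targets of AP-1 lay more often on the higher side, with 11 above 0 and 5 below. The 4 genes named here had the smallest p, and all 4 were higher. Of 16 measured genes of 18 listed, 0 were lower and 4 higher at the thresholds of the methods, beside 1.12% and 1.47% of all probesets. The median log2 fold change was 0.39. With the mouse as a block 0 were lower and 6 higher, beside 1.57% and 1.71% of all probesets. Without mouse 5, in the fit without a block, the counts were 1 lower and 1 higher, beside 1043 of all probesets in either direction. Cd44, the hyaluronan receptor, read 10.10, 9.99 and 9.98 with C5a, against 8.44, 9.28 and 9.12 without, a log2 fold change of 1.08 (SE 0.22, adjusted p = 0.177). Plaur, the urokinase receptor, read 10.66, 9.43 and 9.54 with C5a, against 8.88, 8.93 and 8.28 without, a log2 fold change of 1.18 (SE 0.37, adjusted p = 0.311). Timp1, an inhibitor of matrix metalloproteinases, had 0.64 (adjusted p = 0.362), and Ezr, a linker of membrane and actin, had 0.44 (adjusted p = 0.270). None of the 16 passed the adjusted threshold in either direction. Many factors other than AP-1 act on these genes, and whether any subunit bound them was not measured.

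**Figure D4:**
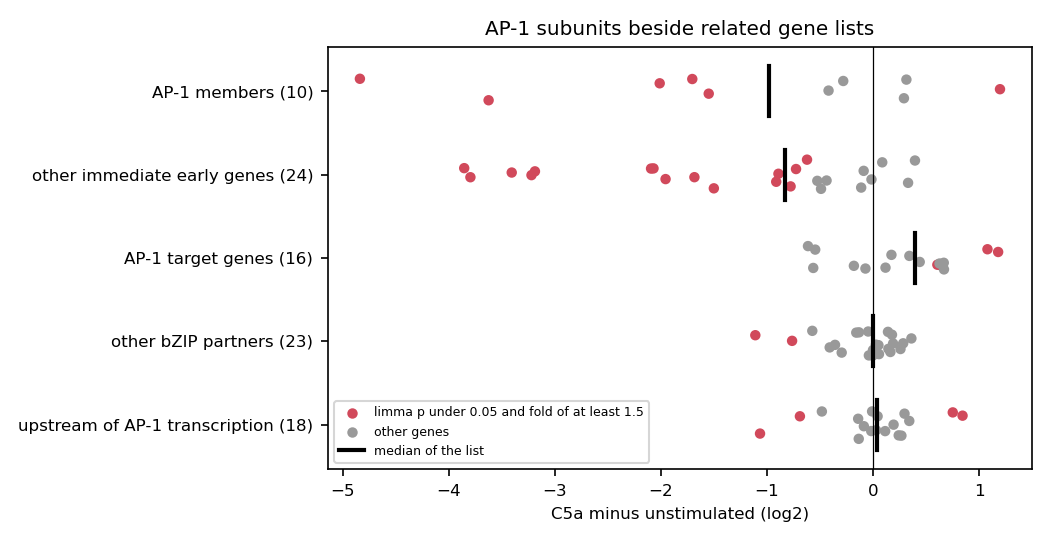
Log2 fold change, C5a minus unstimulated (horizontal axis), of each measured gene in 5 lists (number of genes in brackets), with a black bar at the median of each list and red points for genes past the thresholds of the methods with limma. The medians are -0.98 for the AP-1 subunits, -0.83 for other immediate early genes, 0.39 for AP-1 targets, -0.0011 for other bZIP genes and 0.035 for upstream genes.

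Markers of cell types were set beside these changes. Of 8 measured osteoblast markers and of 15 macrophage and osteoclast markers 0 passed the thresholds of the methods, or 1 macrophage marker, Mrc1, with the mouse as a block (log2 fold change -0.62), while 12 of the 15 macrophage and osteoclast markers had values below 0. The smooth muscle and pericyte markers were higher in 5 of 6 cases, 2 of them past these thresholds or 3 with the block, Tagln with 0.70 (SE 0.26, adjusted p = 0.411) and Cnn1 with 0.63 (SE 0.22, adjusted p = 0.373), and their mean was 10.04 to 10.35 with C5a and 9.43 to 10.33 without. Of 5 chondrocyte markers 1 was lower, Sox9, with -0.71 (SE 0.27, adjusted p = 0.420). Of 5 adipocyte and 5 endothelial markers 0 passed, or 1 adipocyte marker, Lpl, with the block (log2 fold change -0.64), and the endothelial mean was 5.22 to 5.31 with C5a and 5.23 to 5.29 without, below the array medians. For comparison, 1.12% of all probesets were lower and 1.47% were higher at the thresholds of the methods. In the fit that used the mouse as a block, these shares were 1.57% and 1.71%. The counts of markers by sign stand beside a median log2 fold change of 0.0070 over all probesets, and they were not tested. The part of these cell types in the subunit changes was not tested.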

How the data were processed

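Total RNA of 6 cultures was hybridised to Affymetrix Mouse Gene 1.0 ST arrays. The authors processed the images with Affymetrix Expression Console and BRB-ArrayTools and deposited log2 intensity values after RMA (versions not given in the sources used here). All 35556 probesets were compared without further normalization or filter by limma 3.58.1 in R 4.3.3, C5a minus unstimulated, with Benjamini-Hochberg adjustment. The fit was tested on simulated data. Of the probesets, 21789 name 1 gene, 1621 several and 12146 none, and each gene was taken by its probeset with the highest mean.

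The methods' t-test does not name a pairing, so the main fit has none. By the series design, the cells of each of 3 mice were split between both conditions, and the number in the sample titles was read as the mouse. Deviations from group means correlated at 0.495, 0.534 and 0.684 between arrays of the same mouse number and at -0.446 to -0.035 between others, and the mouse was used as a block in an alternative fit. The precision is limited by 3 mice per group. The other alternatives were t-tests, centring, quantile normalization, a filter on low probesets and leaving out arrays. The counts of the gene lists without mouse 5 were added after seeing the data.

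Named genes are the 10 subunits, the 4 measured genes of smallest p in each list at most, and the 5 genes most like Fos or Fosl1. Outside this rule, Col1a1 was named for its level as an osteoblast marker, and Ibsp after its values were seen. Members and gene lists were chosen with earlier results of these data known. The cultures stimulated for a shorter time are not analysed here.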

Additional observations from a re-analysis of the deposited data

How the results depend on the processing

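Direction and call of the subunits were the same under median centring, quantile normalization, a filter on low probesets and a trended variance. A choice of another probeset could change nothing, since each subunit has 1. With the mouse as a block the counts of lower subunits were 1 after adjustment and 5 at the thresholds of the methods, as without it. Over all probesets 5 passed the adjusted threshold, and 0 did with the methods' t-test, its Welch form or its paired form, and 0 to 2 when arrays were left out. At the thresholds of the methods 923 passed, 510 in the Welch form, 517 in the paired form and 587 to 1314 when arrays were left out. The count of lower subunits after adjustment was 1, and 0 with each of these 3 tests, or 0 to 1 when arrays were left out. At the thresholds of the methods it was 5 throughout the left-out arrays. The count of higher subunits there was 1, and 0 with the methods' t-test and the Welch form, or 0 to 2 when arrays were left out. Maff was 0.73 without the C5a array of mouse 4, where its unadjusted p was 0.0378, and was reversed at -0.037 without the C5a array of mouse 5, where its p was 0.918, and the cause was not tested. The change of Jund passed the adjusted threshold neither in the main fit nor in any of the 18 alternative settings. The values say nothing of protein or of times other than 4 h.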
